A study of Mus musculus with 6 samples.

Results

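The VEGF and endothelial receptor genes are 10 genes of blood and lymphatic vessel growth. They comprise the ligand genes Vegfa, Vegfb and Vegfc, the VEGF receptor genes Kdr, Flt1 and Flt4, the receptor genes Tek and Tie1, the co-receptor gene Eng and the adhesion gene Pecam1. They were taken by symbol, and all 10 were found among the 19946 genes with a feature that carries a single gene symbol, each with 1 feature. The values are from whole lungs of mouse embryos at E14.5, measured on single-colour Affymetrix arrays, 3 from mutant embryos and 3 from control embryos. Mutant embryos carried Shh-Cre and homozygous floxed alleles of the forkhead genes Foxp1, Foxp2 and Foxp4. The series title names Foxp1/2/4, whereas the genotype label lists Foxp1 in duplicate and no Foxp2, and the design text calls the mutants DKO. The title was followed here. Control embryos carried Shh-Cre without floxed alleles in their label. Both groups thus share Shh-Cre, a Cre recombinase driven from the Shh locus and active in lung endoderm, and a mixed C57BL/6 and 129X1 background. Shh-Cre acts in the epithelium, while most of the 10 genes are made by vessel cells.

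VEGF ligands are secreted by epithelium and mesenchyme of the embryonic lung and bind receptor tyrosine kinases on endothelial cells, which line the vessels and grow with the branching airways. Kdr carries most of the growth signal of Vegfa, Flt1 binds Vegfa and Vegfb and can act as a decoy, and Flt4 is the receptor of Vegfc in lymphatic vessels. Tek is the receptor of the angiopoietins and Tie1 its partner. Eng is a co-receptor for ligands of the TGF-beta family, among them BMP9, and Pecam1 is an adhesion molecule at endothelial junctions. In whole lung, fewer cells of a type and less RNA per cell cannot be told apart.

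Of the targeted genes, Foxp2 read between 9.55 and 9.60 in mutants and between 10.52 and 10.54 in controls (log2 scale), and Foxp4 between 8.56 and 8.96 in mutants and between 9.37 and 9.43 in controls. Both were lower in mutants (limma adjusted p = 4.75e-05 and 0.00591), while Foxp1 was at -0.31 ± 0.08 (SE, n = 3 per group, adjusted p = 0.0661). Xist and Y-linked genes read male in mutant 3 and control 3 and female in the other 4 embryos. Mutant 1 stood apart in 20 heart muscle genes, whose median lay 1.13 log2 units above the control mean, against -0.21 in mutant 2 and -0.18 in mutant 3. Over all genes, array correlations lay between 0.994 and 0.996 within mutants and near 0.998 within controls.

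Eng was the only member past the threshold, and it was higher in mutant lungs. Of the 10 members, 1 was higher and 0 were lower (limma, Benjamini-Hochberg adjusted p under 0.05). This 10% lay near the 7.66% of all 19946 genes that passed in either direction, 3.84% higher and 3.83% lower. The median log2 difference of the members, mutant minus control, was -0.05, against -0.01 over all genes. The values of mutants lay wholly above those of controls in 2 members, Vegfb and Eng, and wholly below in 1, Kdr. Such a separation was seen in 25.9% of all genes, 13.4% above and 12.6% below. All 10 members had a control mean above 7.35, the median of all genes, so none lay in the dimmest part of the scale.

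**Figure D1:**
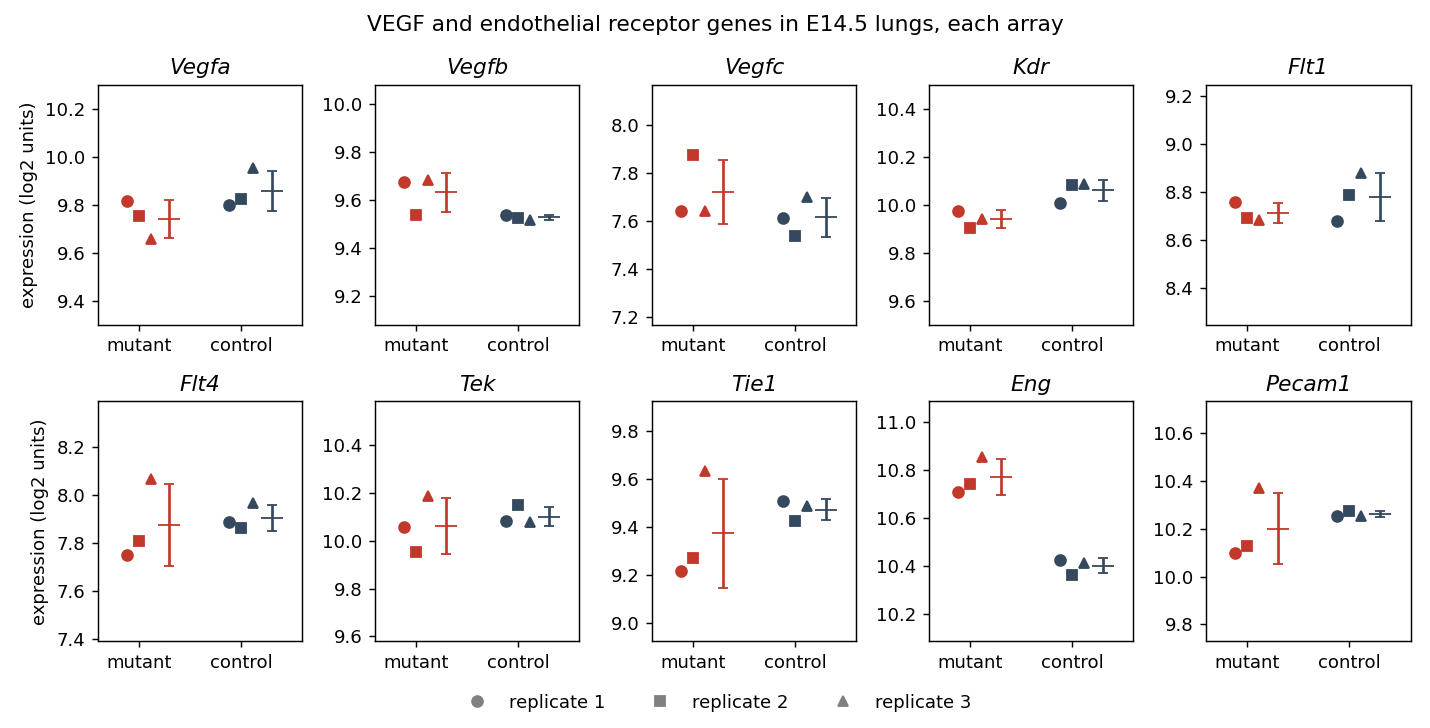
Expression of the 10 members (log2 units, one panel per gene, each axis spanning 1 log2 unit) in 3 mutant and 3 control lungs. Points are arrays, and the bar beside them is the mean with its SD. The Eng values of the mutants, 10.71 to 10.85, all lie above those of the controls, 10.36 to 10.42.

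Vegfa, the main growth factor for vessel endothelium, read 9.82, 9.75 and 9.66 in mutants 1 to 3 and 9.80, 9.82 and 9.95 in controls 1 to 3. The groups overlapped, since mutant 1 lay above control 1. The log2 difference was -0.12 ± 0.07 (SE, n = 3 per group) with a 95% interval from -0.28 to 0.04 and a limma adjusted p of 0.421. Vegfb, a ligand of Flt1, read 9.67, 9.54 and 9.68 in mutants and 9.54, 9.53 and 9.52 in controls. Mutant 2 lay within 0.01 of control 1, the other 2 mutants were higher, and the difference of 0.10 ± 0.06 did not pass (interval -0.03 to 0.24, adjusted p = 0.408). Vegfc, the ligand that drives lymphatic growth, read 7.64, 7.87 and 7.64 in mutants and 7.61, 7.53 and 7.70 in controls. Mutant 2 was the highest array and mutants 1 and 3 lay among the controls, with a difference of 0.10 ± 0.08 (interval -0.08 to 0.29, adjusted p = 0.574). Without mutant 2 the Vegfc difference was 0.03 (adjusted p = 0.872).

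Kdr, the main signalling receptor of Vegfa, read 9.98, 9.90 and 9.94 in mutants and 10.01, 10.08 and 10.09 in controls. Every mutant lay below every control, by 0.03 at the nearest pair, and the difference of -0.12 ± 0.06 (SE, n = 3 per group) did not pass the threshold (interval -0.25 to 0.01, limma adjusted p = 0.286). Flt1 read 8.76, 8.69 and 8.68 in mutants and 8.68, 8.79 and 8.88 in controls, so control 1 lay as low as the lowest mutant. Its difference was -0.07 ± 0.07 (interval -0.22 to 0.09, adjusted p = 0.666). One feature gives no separate value for the soluble form of Flt1 or for the splice forms of Vegfa. Flt4, the lymphatic VEGF receptor, read 7.75, 7.81 and 8.07 in mutants and 7.89, 7.86 and 7.97 in controls. Mutants 1 and 2 lay below all controls and mutant 3 above all of them, with a difference of -0.03 ± 0.09 (interval -0.23 to 0.17, adjusted p = 0.907).

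Tek read 10.06, 9.95 and 10.18 in mutants and 10.08, 10.15 and 10.08 in controls. Its difference was -0.04 ± 0.07 (SE, n = 3 per group, interval -0.20 to 0.13, limma adjusted p = 0.845). Tie1 read 9.22, 9.27 and 9.64 in mutants and 9.51, 9.42 and 9.49 in controls. This gave the widest spread among the members, an SD of 0.23 in mutants and 0.04 in controls, and a difference of -0.10 ± 0.11 (interval -0.35 to 0.15, adjusted p = 0.711). Pecam1 read 10.10, 10.13 and 10.37 in mutants and 10.25, 10.27 and 10.25 in controls, with an SD of 0.15 in mutants and 0.01 in controls. Its difference was -0.06 ± 0.08 (interval -0.24 to 0.12, adjusted p = 0.765). In these 3 genes, as in Flt4, mutants 1 and 2 lay below all controls and mutant 3 above all of them.

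Eng read 10.71, 10.74 and 10.85 in mutants 1 to 3 and 10.42, 10.36 and 10.41 in controls 1 to 3. All mutants were higher than all controls, and the nearest mutant and control were 0.29 apart. The difference was 0.37 ± 0.06 (SE, n = 3 per group) on the log2 scale, or 1.29-fold, with a 95% interval from 0.23 to 0.51 (limma adjusted p = 0.00888). Without control 2 the difference was 0.35 and its call ended (adjusted p = 0.0532). With each of the other 5 arrays left out it passed, and without mutant 1 it was 0.40 (adjusted p = 0.0125). With every array scaled to the same mean of 30 pan-endothelial genes the Eng difference was 0.41 (adjusted p = 0.00602). Eng is also made by some mesenchymal and myeloid cells. Of 14 genes of blood leukocytes and platelets, 3 macrophage genes were higher, Adgre1 (0.49 ± 0.10), Csf1r (0.43 ± 0.09) and Cx3cr1 (0.39 ± 0.10), and 0 were lower. The 21.4% called stood against 7.66% of all genes. Mutants lay wholly above controls in 6 of the 14 and wholly below in 2, the platelet genes Ppbp and Gp9. Ppbp, named after its values were seen, had the largest difference of the list, -0.93 ± 0.24. It did not pass (limma adjusted p = 0.0587) and passed under 5 of the 16 other settings. Set against the control means, the median of that list stood at 0.09, 0.14 and 0.18 in the 3 mutants and between -0.02 and 0.01 in controls, and its mean level lay between 7.16 and 7.27 in mutants and between 7.04 and 7.17 in controls. Of the 3 macrophage calls, Csf1r ended without control 1 or 2 and Adgre1 without mutant 3 or any control. Cx3cr1 ended without mutant 1 or any control, and these adjusted p ran from 0.0515 to 0.162. Cx3cr1 also ended with embryo sex or the heart muscle list as a covariate and with all features tested (adjusted p 0.0718, 0.0539 and 0.0511). Their part in the Eng result was not tested.

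The 3 genes whose 6 deviations from the control mean were closest to those of Eng were Swap70, Prelid2 and Chn1. The root mean square difference over the 6 arrays was 0.0311, 0.0325 and 0.0335 log2 units. Their log2 differences were 0.36, 0.36 and 0.35, and the likeness is mostly the shared difference between the groups.

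**Figure D2:**
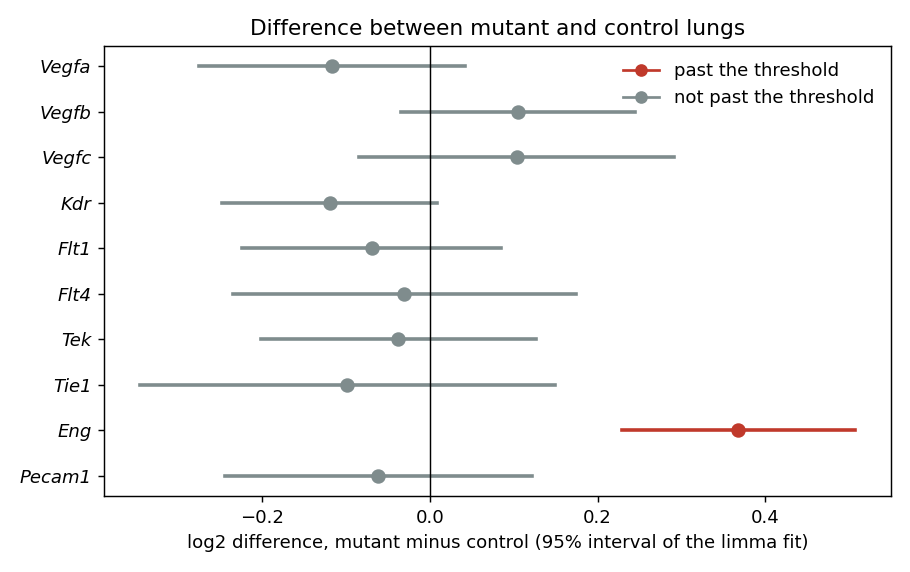
Log2 difference between mutant and control lungs for each member (points) with the 95% interval of the limma fit over 6 arrays (lines). The interval of Eng runs from 0.23 to 0.51, and those of the other 9 members include 0.

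The intervals bound what the other 9 members could have done. The lowest bound was -0.35, for Tie1, and the highest 0.29, for Vegfc. With the spread measured, a member would have passed at a difference of 0.22 (Kdr) to 0.43 (Tie1). A measured fall or rise smaller than this would not have passed with 3 arrays per group. A true change of that size or larger can still be missed.

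In 4 members, Tie1, Pecam1, Flt4 and Tek, the mutants lay on both sides of the controls, with mutant 3 on top. Tie1 deviated from its control mean by -0.25, -0.20 and 0.16 in mutants 1 to 3, Pecam1 by -0.16, -0.13 and 0.11, Flt4 by -0.16, -0.10 and 0.16, and Tek by -0.05, -0.15 and 0.08. Mutant 3 above all controls with mutants 1 and 2 below all controls was seen in these 4 of 10 members and in 2.33% of all genes, a pattern picked after the values were seen. It was also seen in 5 of 30 pan-endothelial genes, which were Cdh5, Robo4, Mmrn2, Arhgef15 and Tal1, and in 3 of 19 arterial, venous and tip cell genes. Further genes with it were 2 of 8 endocardial genes and 2 of 14 of the endoglin and ALK1 pathway. So were 1 of 9 further VEGF ligands, co-receptors and modifiers and 1 of 9 partners of the Tie receptors. It was seen in 0 of 8 lymphatic, 0 of 12 capillary and 0 of 12 pericyte genes. None of the hypoxia, epithelial, heart muscle, red cell, leukocyte and platelet or mesothelial genes showed it. The mean level of the 30 genes was 8.81, 8.91 and 8.99 in mutants 1 to 3 and 8.97, 8.94 and 8.92 in controls 1 to 3. Mutant 1 was thus the lowest array and mutant 3 the highest. Mutant 3 was the male mutant. Male control 3 was the highest control in Flt4 and the lowest in Tek, and lay between the other controls in Tie1 and Pecam1. Kdr, Flt1 and Vegfa did not show it. In Kdr and Vegfa mutant 3 lay below all controls, and in Flt1 and Vegfa it was the lowest mutant. Without mutant 3 the differences were -0.23 in Tie1, -0.15 in Pecam1, -0.13 in Flt4 and -0.10 in Tek, with adjusted p from 0.0953 to 0.498.

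**Figure D3:**
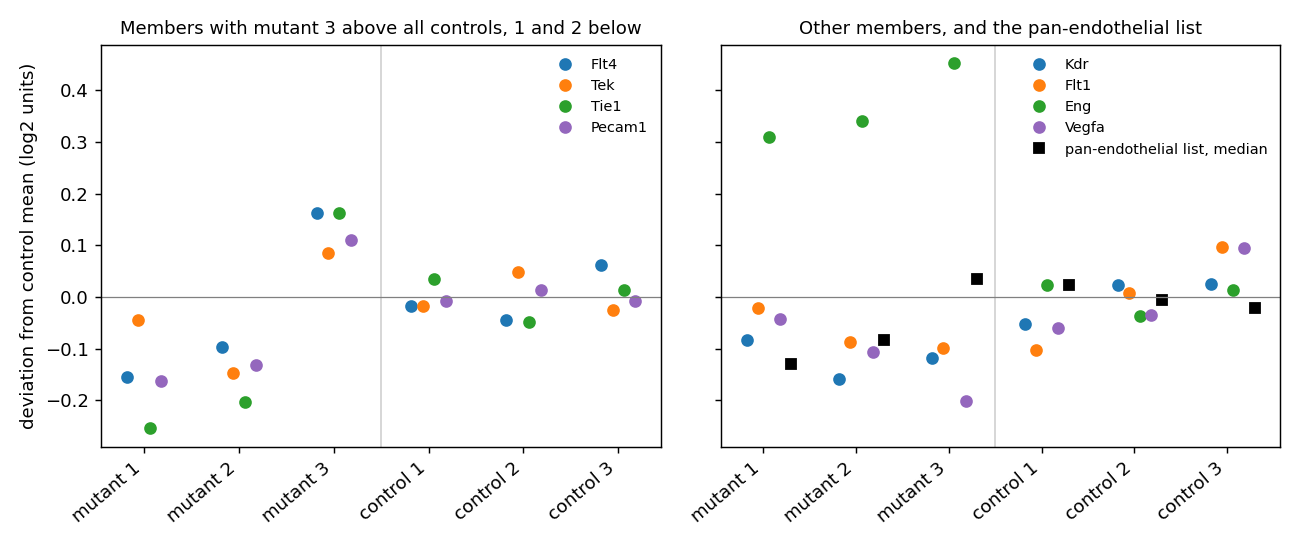
Deviation of each array from the control mean (log2 units) for 4 members with mutant 3 above and mutants 1 and 2 below all controls (left) and for 4 others with the median of the pan-endothelial list (right). Mutant 3 lies above 0 in Flt4, Tek, Tie1 and Pecam1, mutants 1 and 2 below 0, and Eng lies between 0.31 and 0.45 in all mutants.

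The RefSeq promoter table (GRCm38.p6) held windows for 9 members, and 250 bases before the start were searched on both strands. Eng is the member past the threshold. Of the members with mutant 3 above and mutants 1 and 2 below all controls, Tek and Tie1 are those whose windows held a motif match. The windows of Eng, Tek and Tie1, in that order, are shown 5′ to 3′ on the strand of the gene. They lie at chr2:32646345-32646594, plus strand, at chr4:94739039-94739288, plus strand, and at chr4:118489850-118490099, minus strand. Capitals mark a match to 1 of 3 motifs, the forkhead motif TGTTTNC, the HIF motif ACGTG or the ETS motif CNGGAAGT, which do not overlap here.
Eng: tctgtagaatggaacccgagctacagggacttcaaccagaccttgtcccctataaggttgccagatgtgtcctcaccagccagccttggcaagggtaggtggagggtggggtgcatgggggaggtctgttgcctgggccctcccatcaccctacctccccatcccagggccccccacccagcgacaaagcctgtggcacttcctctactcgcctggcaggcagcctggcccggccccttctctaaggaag
Tek: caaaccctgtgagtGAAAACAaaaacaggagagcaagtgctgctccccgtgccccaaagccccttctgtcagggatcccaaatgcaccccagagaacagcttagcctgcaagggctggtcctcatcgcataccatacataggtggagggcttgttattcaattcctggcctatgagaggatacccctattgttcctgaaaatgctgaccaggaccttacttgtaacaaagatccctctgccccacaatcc
Tie1: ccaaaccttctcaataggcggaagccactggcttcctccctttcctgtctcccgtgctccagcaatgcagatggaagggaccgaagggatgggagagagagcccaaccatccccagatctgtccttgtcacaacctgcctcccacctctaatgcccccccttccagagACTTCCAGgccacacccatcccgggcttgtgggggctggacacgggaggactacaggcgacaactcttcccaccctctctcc
The forkhead motif matched in Tek, from base -236 to -230 relative to the start, and in no other member. It matched 17.8% of all 32841 promoter windows of that length. The ETS motif matched in Tie1, from base -82 to -75, and in 7.58% of all windows. The HIF motif matched at 1 of the 2 annotated starts of Vegfa and in 16.6% of all windows. The match lay at the downstream start (window chr17:46025164-46025413, minus strand). The window of the upstream start, chr17:46032378-46032627, held none. The windows of Eng and Flt4 held none of the 3 motifs. Flt4 shared the pattern of mutant 3 with Tek and Tie1, as did Pecam1, which had no window. These are matches of letters, and binding was not measured.

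In the VEGF system outside the members, the co-receptor gene Nrp1 and the ligand gene Vegfd were lower. Of 9 further VEGF ligands, co-receptors and modifiers, 0 were higher, 2 were lower and 7 did not pass (median -0.10). Nrp1, a co-receptor of Kdr that also binds semaphorins, read 10.18, 9.98 and 10.07 in mutants and 10.42, 10.47 and 10.41 in controls. All mutants lay below all controls, with a difference of -0.35 ± 0.07 (SE, n = 3 per group, limma adjusted p = 0.017). Vegfd, a ligand of Flt4 made by lung mesenchyme, read 9.33, 9.59 and 9.61 in mutants and 9.97, 9.87 and 9.87 in controls, again with no overlap. Its difference was -0.39 ± 0.09 (adjusted p = 0.0299). The call of Nrp1 ended without mutant 3 or control 1, 2 or 3 (adjusted p 0.0523 to 0.0846) and with the arrays scaled to the pan-endothelial list (adjusted p = 0.0786). That of Vegfd ended without control 1, 2 or 3 (adjusted p 0.0932 to 0.122) and with embryo sex as a covariate (adjusted p = 0.0547). Pgf, a ligand of Flt1 named after its values were seen, was at -0.45 ± 0.11 with an adjusted p of 0.0502 and passed under 6 of the 16 other settings. Shh-Cre acts in epithelium, and of 20 epithelial genes 11 were lower, 0 higher and 9 did not pass (median -0.43). The mean level of the 20 genes lay between 9.0 and 9.29 in mutants and between 9.87 and 9.93 in controls. That mean includes the surfactant gene Sftpc, at -5.58. The part of epithelium in these values was not tested.

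Among partners of the Tie receptors, 2 of 9 were higher, 0 were lower and 7 did not pass (median 0.02). Angpt1, the activating ligand of Tek, read 8.53, 8.66 and 8.63 in mutants and 8.20, 8.26 and 8.37 in controls. The groups did not overlap, and the difference was 0.33 ± 0.07 (SE, n = 3 per group, limma adjusted p = 0.0238). Svep1, an extracellular protein that binds Tie1, read 10.74, 10.37 and 10.53 in mutants and 9.80, 10.01 and 9.94 in controls. Its difference was 0.63 ± 0.10 (adjusted p = 0.00826), which passed with each array left out, while the call of Angpt1 ended without mutant 3, control 1 or control 2 (adjusted p 0.0716 to 0.103). Angpt2, the context-dependent ligand of Tek named after its values were seen, read 7.44, 7.81 and 7.91 in mutants and 7.35, 7.22 and 7.37 in controls. Its difference of 0.41 ± 0.12 did not pass (adjusted p = 0.085). Without mutant 1, the lowest mutant, it was 0.55 (adjusted p = 0.00506), and leaving out that array favours a rise. With all 6 arrays it passed with the pan-endothelial scaling (0.45, adjusted p = 0.0143). It also passed with the heart muscle list as a covariate (0.51, adjusted p = 0.00555). That list was high in mutant 1 alone, so the covariate fit comes close to leaving out mutant 1 again.

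Around Eng, 0 of 14 genes of the endoglin and ALK1 pathway were called by limma, and 3 had an unadjusted p under 0.05. The median was -0.01. The 2 with the smallest p were Smad9, a signal transducer of BMP receptors, at 0.35 ± 0.09 (SE, n = 3 per group, limma adjusted p = 0.0688) and Id1, a BMP target, at 0.39 ± 0.15 (adjusted p = 0.182). Acvrl1, the receptor that Eng assists, was named after its value was seen and read 8.85, 8.96 and 9.17 in mutants and 8.93, 8.98 and 9.08 in controls. The groups overlapped (0.00 ± 0.09, adjusted p = 0.991). Without mutant 1, 3 genes of the list passed, which were Smad9 (0.43), Id3 (0.63) and Gdf2 (-0.26).

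Of 30 pan-endothelial genes, 1 was higher, 1 lower and 28 did not pass (median -0.05). The 6.67% called lay near the 7.66% of all genes. Calcrl, a receptor of adrenomedullin that other cells also make, read 9.72, 10.01 and 9.85 in mutants and 9.27, 9.13 and 8.90 in controls. Its difference was 0.76 ± 0.11 (SE, n = 3 per group, limma adjusted p = 0.00474), and it passed with each array left out. Clec14a, an endothelial surface lectin, was lower (-0.36 ± 0.09, adjusted p = 0.0449), and this call ended without mutant 1, mutant 3 or any control (adjusted p 0.0708 to 0.164).

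Most genes of endothelial subtypes did not pass, and those that did lay in both directions. Of 19 arterial, venous and tip cell genes, 2 were higher, 1 lower and 16 did not pass (median 0.01). Unc5b, a netrin receptor of arterial and tip cells, read 9.60, 9.73 and 9.90 in mutants and 8.92, 8.86 and 8.79 in controls. Its difference was 0.89 ± 0.08 (SE, n = 3 per group, limma adjusted p = 0.000617). Hey2, a Notch target of arteries, was also higher (0.46 ± 0.07, adjusted p = 0.00714), and both passed with each array left out. Efnb2, the arterial ephrin that epithelium and mesenchyme make too, was lower (-0.31 ± 0.06, adjusted p = 0.0248), a call that ended without mutant 1 or any control (adjusted p 0.0574 to 0.107). Of 8 lymphatic genes, 0 were higher, 2 lower and 6 did not pass (median -0.05). The 2 were Itga9, an integrin of lymphatic valves (-0.48 ± 0.07, adjusted p = 0.00457), and Pdpn (-0.52 ± 0.10, adjusted p = 0.0169). Both are also made outside vessels, Pdpn in lung epithelium. The call of Pdpn ended without control 1 or 3 (adjusted p 0.0565 and 0.0795). Lyve1, a lymphatic and macrophage receptor named after its value was seen, was at -0.02 ± 0.06 (adjusted p = 0.915).

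Of 12 genes that mark lung capillaries, 3 were higher, 1 lower and 8 did not pass (median 0.04). Car4, a carbonic anhydrase of one capillary cell type in the later lung, read 8.93, 9.35 and 7.08 in mutants and 5.98, 5.96 and 5.83 in controls. All mutants were far above all controls, with mutant 3 the lowest of them, and the difference was 2.53 ± 0.50 (SE, n = 3 per group, limma adjusted p = 0.0201). The call ended without control 1, 2 or 3 (adjusted p 0.0724 to 0.0855). It also ended with a mean-variance trend and robust moderation together in the fit (adjusted p = 0.102). Mutant 3, lowest in Car4 among the mutants, was the highest mutant in Tie1, Flt4, Tek and Pecam1. Fibin was higher (0.59 ± 0.06, adjusted p = 0.00137) under each array left out. Kit, a receptor tyrosine kinase of another capillary type, was at 0.24 ± 0.06 (adjusted p = 0.0488), and Foxf1, a mesenchymal and endothelial forkhead gene, at -0.38 ± 0.08 (adjusted p = 0.0226). The call of Kit ended without mutant 2, mutant 3 or any control (adjusted p 0.0589 to 0.185), and that of Foxf1 without any control (adjusted p 0.075 to 0.0989).

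Pericyte and hypoxia genes were higher where they passed. Of 12 pericyte genes, 2 were higher, 0 lower and 10 did not pass (median -0.01). They were Pdgfrb, the receptor that recruits pericytes and is made in much of the mesenchyme (0.36 ± 0.06, SE, n = 3 per group, limma adjusted p = 0.0133), and the peptidase gene Anpep (0.79 ± 0.09, adjusted p = 0.00149). Cspg4 and Kcnj8, more specific to pericytes and picked with their values known, were at -0.05 and 0.02 and did not pass. Mcam, also named after its values were seen, lay lower in all mutants than in all controls (-0.20 ± 0.05). It did not pass (limma adjusted p = 0.0569) but passed as lower under 2 of the 16 other settings. The call of Pdgfrb ended without control 1, 2 or 3 (adjusted p 0.0597 to 0.0628). Of 20 genes of HIF and the hypoxia response, to which Vegfa belongs in many tissues, 3 were higher, 0 lower and 17 did not pass (median 0.12). Bnip3, a mitophagy gene, read 9.65, 9.69 and 9.79 in mutants and 8.89, 8.91 and 9.04 in controls, a difference of 0.76 ± 0.07 (adjusted p = 0.000432). Pdk1, a kinase that restrains pyruvate oxidation, was at 0.41 ± 0.07 (adjusted p = 0.00872) and Ldha, lactate dehydrogenase, at 0.22 ± 0.05 (adjusted p = 0.0379). Bnip3 and Pdk1 passed with each array left out, and Ldha ended without mutant 1, mutant 3 or any control (adjusted p 0.0801 to 0.155).

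**Figure D4:**
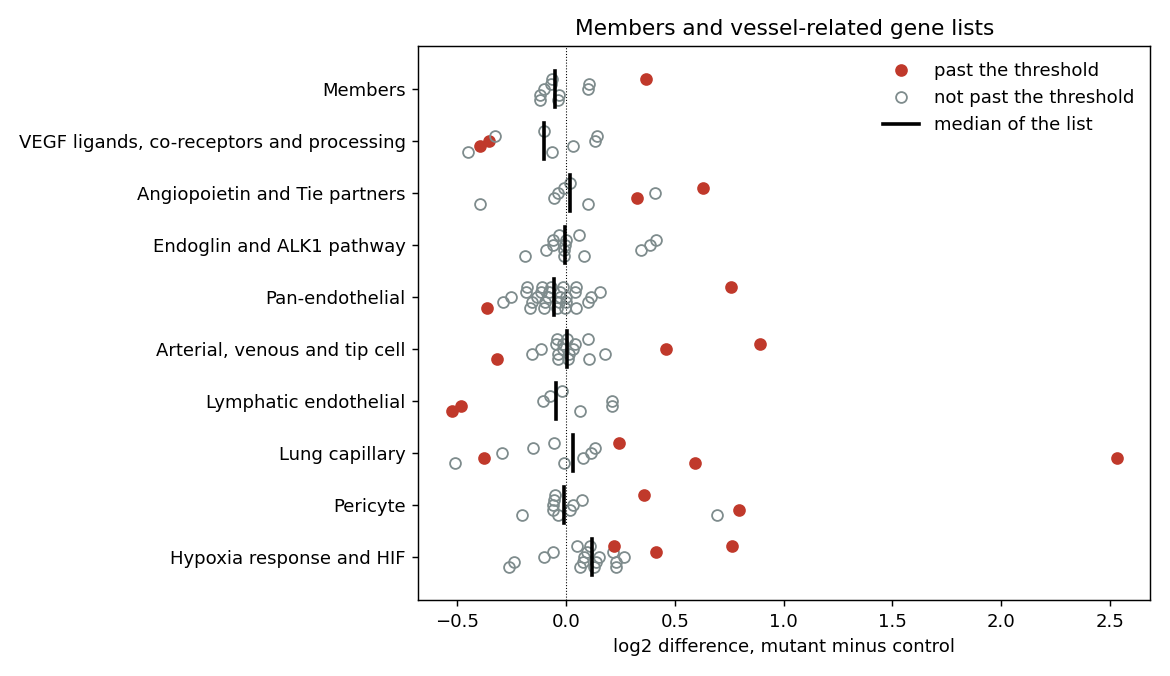
Log2 difference, mutant minus control, of the 10 members and of every measured gene in 9 vessel-related lists (points, filled where past the threshold), with the list median as a black bar. Car4 of the capillary list lies at 2.53, and the medians of all lists lie between -0.10 and 0.12.

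Other cell types that a whole lung sample can hold also differed between arrays. Of 20 heart muscle genes, Smpx was lower (-0.99 ± 0.19, limma adjusted p = 0.0166) and 19 did not pass, and their mean level lay between 6.79 and 8.19 in mutants and between 7.14 and 7.19 in controls. The call of Smpx ended without control 1, 2 or 3 (adjusted p 0.0527 to 0.0793). Of 8 endocardial genes, Npr3 was higher (0.39 ± 0.05, adjusted p = 0.00378) and Cytl1, which cartilage also makes, lower (-1.80 ± 0.15, adjusted p = 0.000334). Of 7 red cell genes, Slc4a1 (-1.09), Alas2 (-1.04) and Epb42 (-0.43) were lower (adjusted p from 0.00507 to 0.00674). The other 4 did not pass, which were the globin genes Hbb-y (-0.14), Hba-x (-0.15) and Hbb-bh1 (0.21), and Klf1 (-0.06). Of 9 mesothelial genes, Lrrn4 was higher (0.67 ± 0.12, adjusted p = 0.0157), and this ended without control 1 or 2 (adjusted p 0.0725 and 0.0696). The largest falls among the epithelial genes were those of the surfactant gene Sftpc (-5.58), the keratin gene Krt8 (-1.03), Prss8 (-0.89) and Nkx2-1 (-0.88). The part of these lists in the results on the members was not tested. Leaving out mutant 1, which was high in heart muscle genes, left Eng past the threshold and the other 9 members not past it. Adding the heart muscle median to the fit as a covariate did the same. Since that median was high in mutant 1 alone, these settings are nearly the same. They cannot tell heart muscle from other traits of mutant 1.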

How the data were processed

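Per the submitters' processing notes, the authors made the deposited log2 values with oligo and RMA (background subtraction, normalization between arrays, 1 value per feature), and limma is named too, all without versions or settings. The genome build is not given in the sources used here. Scanner files were not analysed here. RMA compresses differences of dim features, and the number of arrays limits the precision.

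Of 35556 features, 23410 have platform annotation, 21797 with a single symbol and 1613 with several. Per gene the feature with the highest mean over 6 arrays was used, which gave 19946 genes. Mutant and control arrays were compared by eBayes after lmFit (limma 3.58.1, R 4.3.3; a two-sided test of genotype with no other term, 7.96 moderated degrees of freedom), Benjamini-Hochberg adjusted over all genes, threshold 0.05. The fit was tested on simulated data.

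Members and the 15 lists (209 of 218 genes measured; the other 9 not analysed here) were chosen with earlier results of these data known. Named genes are the members, per list the called genes that differ most, at most 4 (where there are none, the 2 of smallest p), and 3 genes closest to the member with the largest difference. Promoter windows come from RefSeq.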

Additional observations from a re-analysis of the deposited data

How the results depend on the processing

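The count of members past the threshold stayed at 1, Eng, under the alternatives for normalization, the filter on dim genes, features, moderation, replicate block, embryo sex and the heart muscle covariate. It was 0 with 1.5-fold also required and 0 to 1 with single arrays left out, 0 without control 2. Eng kept its direction in all 16 settings, with adjusted p from 0.00337 to 0.0532, and the other 9 members passed in none. Flt4 changed sign with the pan-endothelial scaling (0.0106), the heart covariate (0.0164) and single arrays left out (-0.127 to 0.0326), and Tek with that scaling (0.00355) and single arrays left out (-0.0973 to 0.0185). None of these values passed. The pan-endothelial scaling moved the median of all genes by 0.04 and the share of higher calls to 59.5%, against 50.1%.

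Calls over all genes numbered 1528, 549 with 1.5-fold required and 774 to 1745 with arrays left out. With 1.5-fold required, calls fell to 0 of 2 in the VEGF ligand list, 1 of 2 in the angiopoietin list, 1 of 2 in the pan-endothelial list, 1 of 3 in the arterial list, 0 of 2 in the lymphatic list, 2 of 4 in the capillary list, 1 of 2 in the pericyte list and 1 of 3 in the hypoxia list. With the replicate block or embryo sex, the VEGF ligand and pan-endothelial lists had 1 call each, and with the block the capillary list had 2. The labels link same-numbered arrays by number only. Their deviations from the group means correlated at -0.069, 0.049 and 0.154, and mutant 1 correlated best with control 2. Mutant 3 and control 3 both read male, and these values cannot tell whether a litter or batch was shared. The block ended the calls of Vegfd, Clec14a, Efnb2, Kit, Foxf1 and Ldha among the named vessel genes, that of Cx3cr1 (adjusted p = 0.0734) and no member's call (Eng adjusted p = 0.0293). Among the other named vessel genes, embryo sex as a covariate ended the calls of Clec14a, Kit and Ldha, the pan-endothelial scaling those of Efnb2 and Ldha, testing all features that of Kit and the mean of features that of Foxf1 (adjusted p 0.052 to 0.0923). Ldha also ended with median centring or the heart covariate (adjusted p 0.0569 and 0.0676). The endoglin list had 1 call with the pan-endothelial scaling and 2 with the heart covariate. With arrays left out the counts ran from 0 to 3 (VEGF ligand, endoglin), 1 to 3 (angiopoietin, pan-endothelial, lymphatic), 2 to 3 (arterial), 1 to 5 (capillary), 1 to 2 (pericyte) and 2 to 4 (hypoxia). The cause was not tested. Signal over background cannot be read from these values.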
